A study of Danio rerio with 24 samples.

Results

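The Hox genes of zebrafish were measured in whole larvae at 3 and 5 days post-fertilization (dpf). Members were all annotated genes whose symbol is hox followed by a cluster letter (a to d) and a paralogue number, which gave 48 of 26878 genes. RNA-Seq was performed on pools of whole larvae in 6 groups of 4 libraries. WT larvae carried no transgene. *elavl3:Gal4* larvae (labelled huC:gal4:gcry:RFP) carried a Gal4 driver under the *elavl3* (HuC) promoter, which is active in neurons, with a red lens marker. *elavl3:Gal4; UAS:fynY531F* larvae (labelled huc:gal4:gcry:RFP joined with UAS:fynY531F:gcry:GFP, here fynY531F) carried the same driver plus a constitutively active form of the Src family kinase Fyn under UAS control, with a green lens marker. Each genotype was sampled at both ages. Driver and transgene were therefore present together, and only fynY531F against *elavl3:Gal4* separates the kinase from the driver. The study described the UAS line as established from a single fish. Whole larvae contain every tissue, so fewer cells of a type and less RNA per cell cannot be told apart in these libraries.

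Hox genes encode homeodomain transcription factors that give cells their position along the head to tail axis. They lie in clusters, and their order along the chromosome follows the order of their expression domains: low-numbered paralogue groups are expressed from the hindbrain backwards, middle groups from the cervical and trunk levels, and high-numbered groups in the posterior trunk, tail, cloaca and fins. Their domains include the hindbrain and spinal cord, neural crest, mesoderm and gut, and retinoic acid activates many of the low-numbered genes. Below, paralogue groups 1 to 3 are called anterior (10 genes), 4 to 8 central (15 genes) and 9 to 13 posterior (23 genes).

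The 48 genes lay in 7 clusters, given here in GRCz11 coordinates from the first to the last base of the annotated Hox genes. The aa cluster held 6 genes on chromosome 19 (19729506 to 19787752) and its duplicate ab held 5 on chromosome 16 (20895904 to 20929183). The ba cluster held 11 genes on chromosome 3 (23654233 to 23771945) and bb held 4 on chromosome 12 (27117609 to 27142834). The ca cluster held 11 genes on chromosome 23 (35969228 to 36190988) and cb held 4 on chromosome 11 (2156430 to 2204754). The da cluster held 7 genes on chromosome 9 (1937049 to 1990323), on the minus strand, while the others were on the plus strand. The annotated span of 31 of the 48 genes overlapped another gene and that of 20 overlapped another Hox gene. For example, the *hoxb3a* model spans *hoxb1a*, *hoxb2a*, *hoxb4a*, *hoxb5a* and *hoxb6a*, and the *hoxc3a* model spans *hoxc4a* to *hoxc9a*. A gene on the opposite strand overlapped 25 of them, as *tax1bp1b* does the ab cluster. The sources used here do not say whether counting used strand, so the values of these 31 genes may share reads with a neighbour. The counts below are therefore also given for the 17 genes that overlapped none. The only anterior gene among these was *hoxb1b*, whose counts were too low for testing, so they cannot check a contrast with anterior genes.

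Total counts per library ranged from 11386498 to 30549128, of which 5546 to 28077 fell on Hox genes. *fyna*, the gene from which the transgene was made, checked the labels: its level in CPM (counts scaled to library size) ran from 84.4 to 90.5 in WT and 823 to 972 in fynY531F larvae at 3 dpf. At 5 dpf it ran from 76.3 to 92.6 in WT and 141 to 270.5 in fynY531F larvae. The *elavl3:Gal4* libraries had 69.1 to 81.9 at the younger and 84.8 to 92.2 CPM at the older age. One library stood apart, *elavl3:Gal4* replicate 3 at 5 dpf. Its median correlation with its group was 0.872, against at least 0.983 for every other library, its TMM factor was 0.5981 against 0.9364 to 1.094, and its *elavl3* level was 78.07 CPM against 411.7 to 518.2 CPM in the rest of its group. The Hox comparisons and class sums that use it are given with and without it. Values of the other gene lists and markers that involve *elavl3:Gal4* at 5 dpf are given only with it included.

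Transcripts of all 48 Hox genes were detected, at levels spread over a wide range. To compare genes, CPM were divided by gene length (CPM per kb) and averaged over the 24 libraries. The 5 highest were *hoxb5a* at 24.45, *hoxc6a* at 21.72, *hoxb8a* at 19.07, *hoxc8a* at 17.66 and *hoxc5a* at 17.12 CPM per kb, all central genes of the trunk groups. The lowest were *hoxb1b*, which acts early in hindbrain patterning, at 0.2511, *hoxb5b* at 0.4379 and *hoxb6b* at 0.4857 CPM per kb, all of the bb cluster. By cluster, ca held 34% of the summed Hox level, ba 33.9%, da 11.4%, ab 9.2%, aa 8.53%, cb 2.5% and bb 0.504%. By paralogue group, the shares ran from 14.5% for group 5 and 12.3% for group 9 down to 2.14% for group 7 and 1.63% for group 1. Without the library that stands apart, these shares moved by at most 0.22 percentage points, and the same 5 genes were the highest. With all libraries, *hoxb1b* passed the filter on low counts in no comparison, and *hoxb5b*, *hoxb6b*, *hoxb8b* and the ba gene *hoxb1a* failed it in some, so the number of Hox genes tested ran from 43 to 47.

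**Figure D1:**
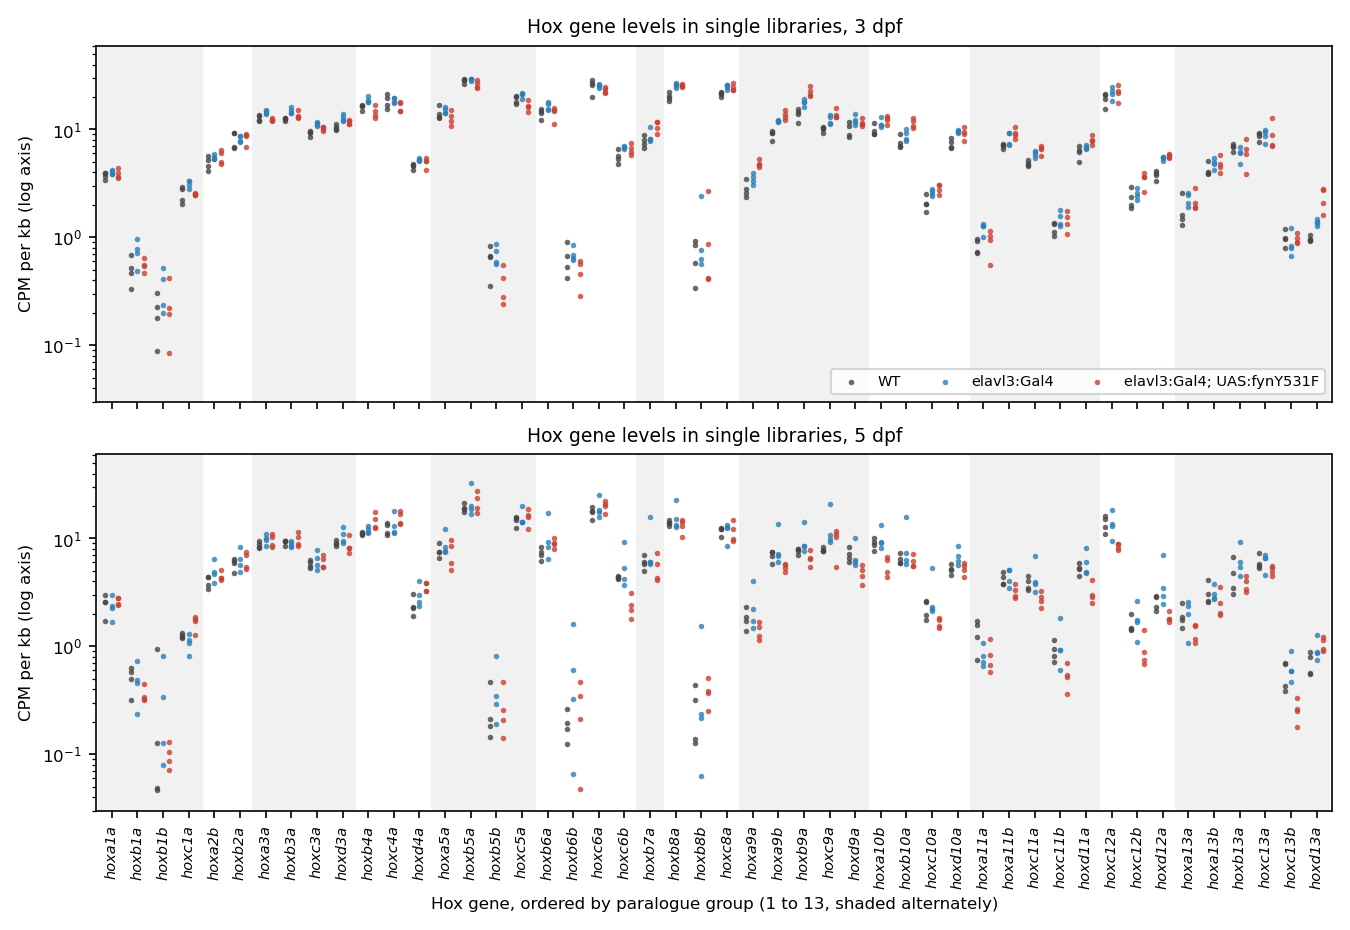
Level of each of the 48 Hox genes in CPM per kb (log axis) in single libraries at 3 dpf (upper panel) and 5 dpf (lower panel), 1 point per library, coloured by genotype and ordered by paralogue group. Means over the 24 libraries run from 24.45 for *hoxb5a* to 0.2511 CPM per kb for *hoxb1b*.

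The first comparison asked how Hox levels changed from 3 to 5 dpf in WT larvae. They fell in all classes. Of the 44 Hox genes tested, 34 were lower and 0 higher at 5 dpf at an adjusted p under 0.05 (edgeR quasi-likelihood test, 2-sided, Benjamini-Hochberg over all genes tested), where 28.7% of all tested genes were lower and 29.3% higher. The calls covered 7 of 9 anterior, 12 of 12 central and 15 of 23 posterior genes, with median log2 changes of -0.46, -0.56 and -0.46, while the median over all tested genes was -0.0033. Among genes that overlap no other gene, 10 of 14 were lower. The WT libraries of both ages did not overlap for 30 of the 44 Hox genes, against 52.1% of all genes.

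*hoxc8a*, a trunk gene that also patterns the mid-spinal cord, went from 23.6, 26.5, 25.6 and 25.1 CPM in WT larvae of 3 dpf to 14.7, 14.9, 14.7 and 12.3 CPM in those of 5 dpf. The ages did not overlap, and the fall was 0.83 ± 0.08 on the log2 scale (SE, adjusted p = 1.94e-06, edgeR), or 1.78-fold. *hoxc1a*, an anterior gene of the hindbrain paralogue group, went from 17.0, 24.4, 18.7 and 23.7 CPM to 11.1, 10.0, 10.7 and 10.3 CPM. Its log2 change of -0.995 ± 0.12 (adjusted p = 1.04e-05, edgeR) was the most negative of the 44. The posterior gene *hoxb9a*, which marks the trunk spinal cord and mesoderm, went from 40.2, 35.8, 29.7 and 37.1 CPM to 19.6, 20.5, 17.96 and 20.5 CPM. It also fell without overlap, by 0.86 ± 0.09 on the log2 scale (adjusted p = 3.84e-06, edgeR). Of the others named by lowest adjusted p, *hoxb6a* fell by 0.97, *hoxa5a* by 0.90, *hoxa11b* by 0.75, *hoxc3a* by 0.67, *hoxb5a* and *hoxa3a* by 0.56, *hoxb4a* by 0.55, *hoxb8a* by 0.53 and *hoxb3a* by 0.44. Posterior genes that did not pass in WT included *hoxc10a* (0.08 ± 0.17 on the log2 scale) and *hoxa11a* (0.64 ± 0.30), the latter chosen here after its value was seen as the highest.

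In *elavl3:Gal4* larvae, 14 of 46 Hox genes were lower and 0 higher at 5 dpf, where 10.4% of all genes were lower and 15.4% higher. Without replicate 3 at 5 dpf, 40 were lower and 0 higher, where 29.4% of all genes were lower and 29.6% higher, and the median Hox log2 change was -0.64 in place of -0.50. Of 16 genes that overlap none, 3 were called lower, and 14 without that replicate. All 14 were among the 34 called in WT, which is 41.2% of the WT list. Without that library the *elavl3:Gal4* and WT lists shared 33 genes, 82.5% and 97.1% of them. Leaving out another library gave 8 to 10 calls, with 8 or 9 without replicate 1, 2 or 4 of either age. The lowest adjusted p belonged to *hoxc1a*, with 28.2, 23.8, 28.3 and 25.9 CPM at 3 dpf and 9.02, 9.63, 6.82 and 11 CPM at 5 dpf, a log2 change of -1.53 ± 0.18 (adjusted p = 0.000599, edgeR). The others of the 14 fell by 0.56 to 1.07 on the log2 scale, *hoxa3a* least and *hoxc8a* most, and between them lay *hoxb3a*, *hoxc3a*, *hoxb4a*, *hoxa11b*, *hoxb9a*, *hoxd4a*, *hoxd9a*, *hoxa5a*, *hoxa1a*, *hoxb8a* and *hoxa13b*.

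In fynY531F larvae the fall from 3 to 5 dpf was deepest among posterior genes. Here 36 of 43 Hox genes were lower and 0 higher, where 25.3% of all genes were lower and 27% higher, and the calls took 7 of 8 anterior, 7 of 12 central and 22 of 23 posterior genes. The median log2 change was -0.46 for anterior, -0.57 for central and -1.24 for posterior genes. All 14 tested genes that overlap no other gene were called lower. *hoxb9a* went from 59.2, 52.3, 53.6 and 65.3 CPM to 16.5, 13.9, 20.03 and 17.02 CPM, a 3.41-fold fall (log2 change -1.77 ± 0.11, adjusted p = 1.55e-06, edgeR). *hoxa9a* of the same paralogue group went from 8.13, 8.83, 8.64 and 9.72 CPM to 2.12, 2.28, 2.76 and 3.07 CPM, a 3.44-fold fall. Neither gene's libraries overlapped between the ages. The remaining genes of lowest adjusted p fell by 0.96 to 1.91 on the log2 scale, and apart from the central genes *hoxb8a* and *hoxc6b* they were posterior (*hoxa9b*, *hoxd12a*, *hoxa11b*, *hoxc12a*, *hoxd9a*, *hoxc11a*, *hoxc13b* and *hoxd11a*). WT and fynY531F shared 29 called genes, 85.3% of the WT list and 80.6% of the fynY531F list.

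A few central genes that fell in WT did not pass in fynY531F larvae. *hoxb4a*, which is expressed from the caudal hindbrain backwards, held 19.95, 22.1, 22.2 and 22.4 CPM in WT at 3 dpf and 14.9, 14.6, 15.4 and 14.3 CPM at 5 dpf, without overlap. In fynY531F larvae it held 19.9, 18.4, 22.4 and 17.1 CPM at 3 dpf and 16.6, 17.2, 20.1 and 23.3 CPM at 5 dpf, which overlap, with a log2 change of -0.01 ± 0.12. *hoxc4a* and *hoxc5a* of the ca cluster, chosen after their values were seen, had log2 changes of -0.07 ± 0.11 and -0.06 ± 0.13 there, against -0.59 ± 0.12 and -0.37 ± 0.10 in WT.

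**Figure D2:**
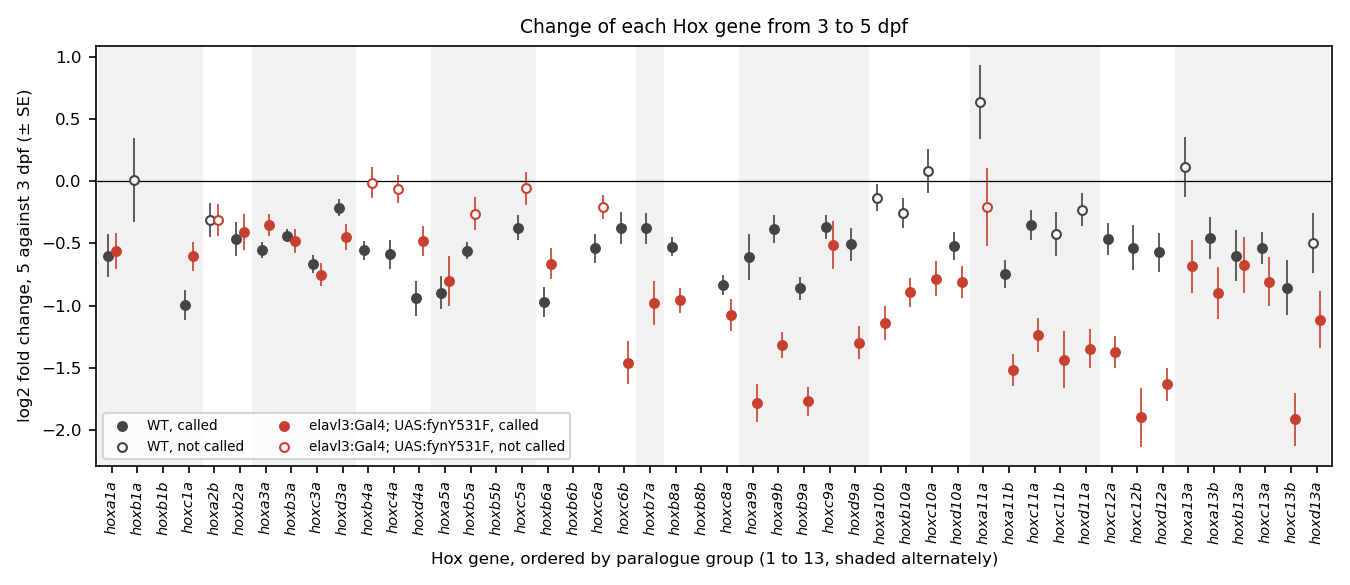
Log2 fold change from 3 to 5 dpf (edgeR, bars are SE) of each tested Hox gene in WT and fynY531F larvae, ordered by paralogue group, with filled points for genes called at an adjusted p under 0.05. Medians of posterior genes are -0.46 in WT and -1.24 in fynY531F larvae, while anterior medians are -0.46 in both.

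Whether the change with age differed between genotypes was tested as an interaction. Against WT, 17 of 46 Hox genes changed more negatively with age in fynY531F larvae and 1 more positively, where 5.47% and 6.23% of all genes did. Posterior genes made up 15 of the 17, all 23 posterior genes had a difference below 0, and their median was -0.88 on the log2 scale. The anterior median was -0.01 with 0 of 9 called by edgeR or DESeq2 and 1 of 9 at an unadjusted p under 0.05, and the central median was 0.29 with 2 of 14 called lower (*hoxc6b* and *hoxb8a*) and *hoxb4a* called higher at 0.53 ± 0.14 (adjusted p = 0.0221). Of the genes that overlap none, 10 of 15 were called lower. Across the 46 genes, Spearman's rho between paralogue number and this difference was -0.645, whereas between paralogue number and the age change itself it was 0.157 in WT (44 genes) and -0.594 in fynY531F larvae (43 genes). These are descriptions across genes, which share libraries and clusters and are not independent replicates.

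The lowest adjusted p belonged to *hoxa9b*. It held 13.9, 11.8, 13.8 and 14.4 CPM in WT at 3 dpf and 11.1, 8.69, 11.2 and 10.4 CPM at 5 dpf. In fynY531F larvae it held 21.0, 22.7, 18.1 and 19.6 CPM at 3 dpf and 7.36, 8.43, 8.71 and 8.02 CPM at 5 dpf. All fynY531F libraries were above WT at 3 dpf, and at 5 dpf they lay below WT except for an overlap at 8.69 and 8.71 CPM. The difference between the age changes was -0.94 ± 0.15 on the log2 scale (adjusted p = 0.000496, edgeR). *hoxd11a*, a gene of the tail and fin groups, held 9.08, 7.05, 9.96 and 8.64 CPM in WT at 3 dpf and 6.39, 7.41, 7.47 and 8.44 CPM at 5 dpf. In fynY531F larvae it held 10.2, 11.2, 10.9 and 12.6 CPM at 3 dpf and 3.55, 4.04, 5.80 and 4.18 CPM at 5 dpf. The crossing pattern was the same, with fynY531F above WT at 3 dpf and below it at 5 dpf without overlap at either age, and a difference of -1.13 ± 0.21 (adjusted p = 0.00166, edgeR). Of the others named, *hoxb9a* had a difference of -0.92, *hoxa10b* -1.02, *hoxd12a* -1.07, *hoxc6b* -1.10, *hoxc11a* -0.90, *hoxa9a* -1.18, *hoxa11b* -0.78, *hoxc12a* -0.92, *hoxc12b* -1.37 and *hoxd9a* -0.80, all at adjusted p of 0.011 or less.

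Paralogue groups 9 to 12 carried most of these calls: 4 of 5 genes of group 9, 3 of 4 of group 10, 4 of 5 of group 11 and 3 of 3 of group 12. Group 13, the most posterior, had 1 of 6, *hoxc13b*. By cluster, all 4 genes of cb were called, against 3 of 11 in ca, 3 of 5 in ab, 3 of 7 in da, 3 of 11 lower in ba and 1 of 6 in aa. Of all genes, 5.47% were more negative. The clusters differ in make-up, as all cb genes except *hoxc6b* are posterior, so these counts cannot separate cluster from class. In several duplicated pairs 1 copy was called and the other was not. *hoxc6b* had a difference of -1.10 ± 0.21 and *hoxc6a* 0.32 ± 0.16 (adjusted p = 0.21), *hoxc13b* had -1.07 ± 0.32 and *hoxc13a* -0.28 ± 0.24 (adjusted p = 0.51), and *hoxa11b* had -0.78 ± 0.16 and *hoxa11a* -0.86 ± 0.44 (adjusted p = 0.23, edgeR for all). The pairs *hoxa9a* and *hoxa9b*, *hoxc11a* and *hoxc11b*, and *hoxc12a* and *hoxc12b* were called lower in both copies. The difference between copies was not tested.

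**Figure D3:**
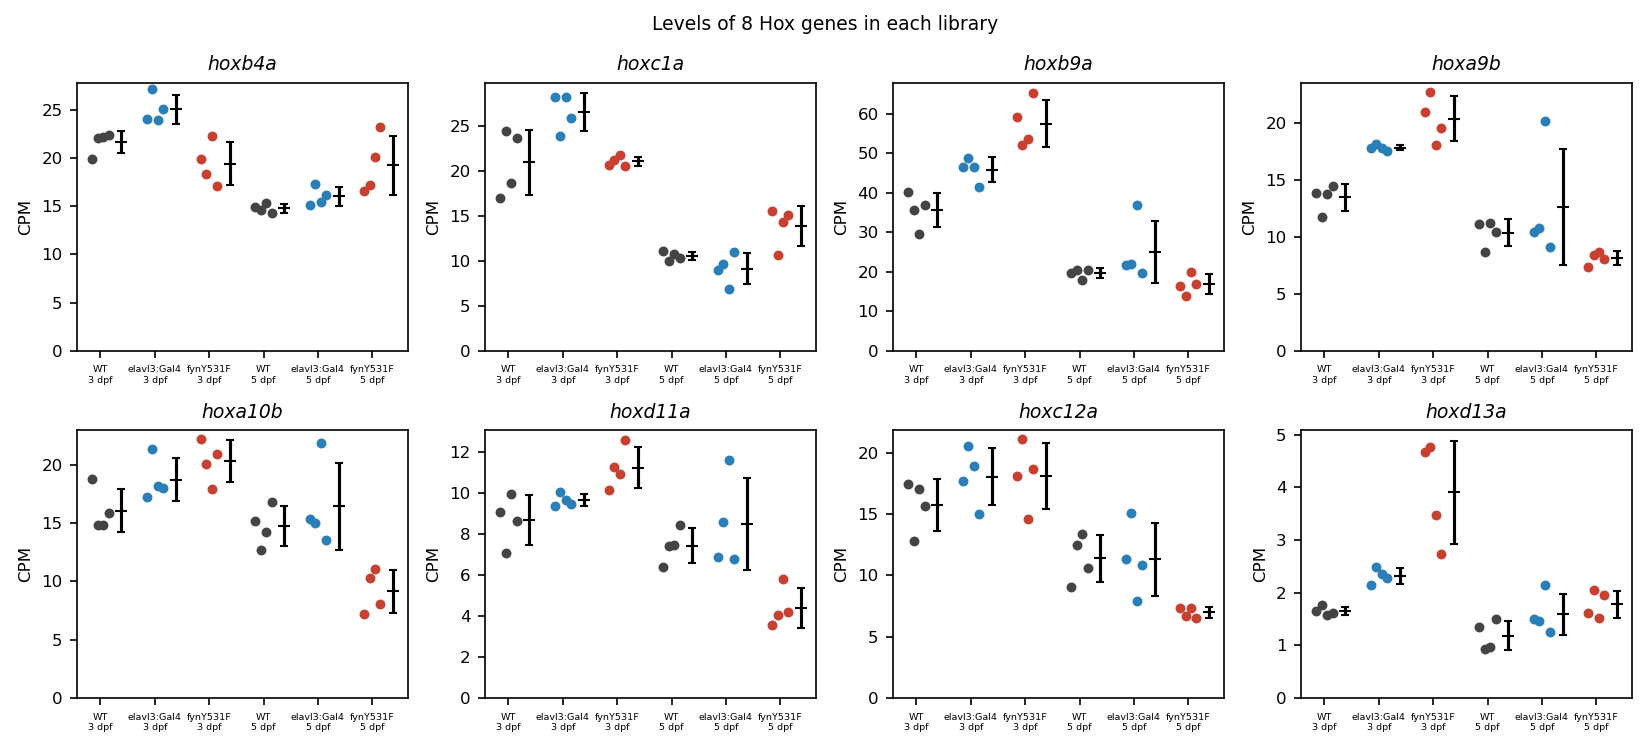
CPM of 8 Hox genes in each of the 24 libraries by group, with the group mean and SD drawn beside the points. In *hoxd11a* the fynY531F libraries lie at 10.2 to 12.6 CPM at 3 dpf and 3.55 to 5.80 CPM at 5 dpf, above and then below all WT libraries of the same age.

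Against *elavl3:Gal4*, 4 of 47 Hox genes changed more negatively with age in fynY531F larvae and 1 more positively, where 1.72% and 2.43% of all genes did. The 4 were posterior: *hoxd11a* (-1.16 ± 0.26, adjusted p = 0.0228), *hoxa10b* (-0.96 ± 0.24, adjusted p = 0.0361), *hoxc13b* (-1.42 ± 0.36, adjusted p = 0.0365) and *hoxc12b* (-1.39 ± 0.37, adjusted p = 0.049, edgeR for all). The anterior *hoxc1a* was more positive, at 0.93 ± 0.21 (adjusted p = 0.0209, edgeR). In all, 22 of 23 posterior genes had a difference below 0, with a median of -0.82 (-0.53 without *elavl3:Gal4* replicate 3 at 5 dpf, again with 22 below 0). Of 16 genes that overlap none, 3 were called, all lower. Without *elavl3:Gal4* replicate 3 at 5 dpf, 12 genes were more negative, 11 of them posterior, and 4 more positive, where 6.48% and 9.4% of all genes were, and without fynY531F replicate 4 at 3 dpf edgeR called 0, with 17 of 48 at an unadjusted p under 0.05. Leaving out any other library gave 2 to 9 calls. The 5 calls differed in how well they held over all alternative runs. That of *hoxd11a* was lost in 1 run and that of *hoxc1a* in 2. Those of *hoxa10b*, *hoxc13b* and *hoxc12b* were lost in 9, 12 and 16 runs. Both interaction tests share the fynY531F libraries.

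At 3 dpf, posterior Hox genes were higher in fynY531F larvae than in WT. Of 46 tested, 16 were higher and 0 lower, where 12.7% of all genes were higher and 14.8% lower, and the 16 comprised 13 of 23 posterior, 3 of 14 central and 0 of 9 anterior genes. Of 15 genes that overlap none, 8 were higher. *hoxd13a*, a gene of the hindgut, cloaca and fin group, held 1.65, 1.76, 1.58 and 1.61 CPM in WT and 4.67, 4.77, 3.48 and 2.74 CPM in fynY531F larvae. The groups did not overlap, and its log2 difference of 1.23 ± 0.22 (2.34-fold, adjusted p = 0.00136, edgeR) was the highest of the 46. *hoxa9a* followed at 0.78 ± 0.14 with 5.15, 4.73, 4.30 and 6.30 CPM in WT against 8.13, 8.83, 8.64 and 9.72 CPM. *hoxb9a* was higher by 0.69, *hoxa9b* by 0.59, *hoxb10a* and *hoxd12a* by 0.58, *hoxc12b* by 0.57, *hoxb7a* by 0.46, *hoxc9a* by 0.45, *hoxc11a* by 0.42, *hoxa11b* by 0.38 and *hoxb8a* by 0.34.

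Larvae with the driver alone also differed from WT. In *elavl3:Gal4* larvae at 3 dpf, 7 of 47 Hox genes were higher than in WT and 0 lower, where 1.82% of all genes were higher and 2.97% lower, and 44 of 47 lay above 0 with a median log2 difference of 0.20. Of 16 genes that overlap none, 3 were higher. The 7 were *hoxd12a* (0.49), *hoxa9b* (0.38), *hoxb9a* (0.34), *hoxb8a* (0.33), *hoxd3a* (0.28), *hoxc3a* (0.26) and *hoxb3a* (0.24), from all 3 classes. For *hoxb9a* the *elavl3:Gal4* libraries held 46.5, 48.9, 46.7 and 41.6 CPM, between the WT and the fynY531F libraries and without overlap with either. All 7 calls were lost without replicate 2 or 3 of WT or replicate 1, 2 or 4 of *elavl3:Gal4*, 1 call was made without WT replicate 1, and 5 without WT replicate 4 or *elavl3:Gal4* replicate 3.

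The kinase against its driver at 3 dpf gave calls in both directions. Of 46 Hox genes, 5 were higher and 4 lower in fynY531F than in *elavl3:Gal4* larvae, where 8.88% and 9.73% of all genes were, so the share of Hox genes called was close to that of all genes (18.6%). Of 15 genes that overlap none, 4 were higher. The 5 that were higher were posterior: *hoxd13a* (0.76 ± 0.21, adjusted p = 0.0226), *hoxa9a* (0.48 ± 0.12, adjusted p = 0.0158), *hoxc12b* (0.46 ± 0.15, adjusted p = 0.0499), *hoxb10a* (0.39 ± 0.10, adjusted p = 0.022) and *hoxb9a* (0.35 ± 0.08, adjusted p = 0.00904, edgeR for all). The 4 that were lower were the anterior *hoxc1a* (-0.30 ± 0.08) and *hoxa3a* (-0.21 ± 0.05), which patterns pharyngeal and hindbrain derivatives, and the central *hoxb4a* (-0.34 ± 0.09) and *hoxc5a* (-0.31 ± 0.09). *hoxd13a* held 2.14, 2.49, 2.36 and 2.29 CPM in *elavl3:Gal4* larvae, below each fynY531F library. *hoxb4a* held 24.04, 27.2, 23.98 and 25.2 CPM, above each fynY531F library. Groups did not overlap for 11 of 46 Hox genes, against 22.1% of all genes. Without replicate 4 of *elavl3:Gal4* 5 genes were called, and without replicate 4 of fynY531F 4 were.

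At 5 dpf most posterior genes lay below WT, the opposite direction to 3 dpf, though a minority of them passed. Against WT, 9 of 43 Hox genes were lower in fynY531F larvae and 3 higher, where 14.3% and 14.5% of all genes were. Posterior genes gave 8 of the 9, and 20 of 23 posterior genes lay below 0 with a median of -0.43. *hoxd13a*, the gene with the highest difference at 3 dpf, did not reverse. It held 1.52 to 2.05 CPM in fynY531F larvae and 0.934 to 1.49 CPM in WT at 5 dpf, and was not called. Of 14 genes that overlap none, 6 were lower. *hoxc12a* held 9.07, 12.5, 13.4 and 10.6 CPM in WT and 7.36, 6.72, 7.32 and 6.49 CPM in fynY531F larvae, a log2 difference of -0.71 ± 0.14 (adjusted p = 0.00327, edgeR) without overlap. *hoxa10b* held 15.1, 12.7, 14.3 and 16.8 CPM in WT and 7.19, 10.3, 11.1 and 8.02 CPM in fynY531F larvae, a difference of -0.68 ± 0.15 (adjusted p = 0.00659, edgeR). At 3 dpf *hoxa10b* had been higher in fynY531F larvae, by 0.33 ± 0.10 (adjusted p = 0.0275, edgeR). *hoxc13b*, a low gene of the tail group, held 3.23, 1.81, 3.29 and 2.02 CPM in WT and 1.19, 0.854, 1.59 and 1.25 CPM in fynY531F larvae, the most negative of the 9 at -1.08 ± 0.29 (adjusted p = 0.0171, edgeR). The others were *hoxc6b* (-0.86), *hoxc11b* (-0.79), *hoxc12b* (-0.78), *hoxd11a* (-0.75), *hoxd9a* (-0.58) and *hoxc11a* (-0.47), so that all 4 cb genes were among the 9. The duplicates of the 2 cb genes at both ends of that cluster, *hoxc6a* and *hoxc13a*, did not pass, at 0.20 ± 0.11 and -0.23 ± 0.14 on the log2 scale.

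The 3 genes that were higher at 5 dpf belonged to low and middle groups. *hoxd4a*, of the caudal hindbrain paralogue group, held 7.02, 5.13, 5.35 and 4.41 CPM in WT and 7.53, 7.52, 8.77 and 8.93 CPM in fynY531F larvae (log2 difference 0.58 ± 0.16, adjusted p = 0.0185, edgeR). *hoxb4a* was higher by 0.38 ± 0.11 and *hoxc1a* by 0.40 ± 0.13 on the log2 scale. *hoxd4a* and *hoxb4a* did not overlap between groups, whereas in *hoxc1a* 1 fynY531F library, at 10.7 CPM, lay within the WT range. Of the 12 calls of both directions, 7 were made without WT replicate 1 or without WT replicate 3 and 6 without fynY531F replicate 4.

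Against *elavl3:Gal4* at 5 dpf, 1 of 43 Hox genes was called, *hoxc13b*, lower in fynY531F larvae by 1.28 ± 0.30 on the log2 scale (adjusted p = 0.0492, edgeR), where 2.6% of all genes were lower and 2% higher. It held 2.80, 2.19, 4.30 and 2.81 CPM in *elavl3:Gal4* larvae, above every fynY531F library. Counts were low, at 14 to 23 reads per fynY531F library. Of 14 genes that overlap none, 1 was called. That call was lost without any 1 library other than *elavl3:Gal4* replicate 3. In all, 22 of 23 posterior genes lay below 0, with a median of -0.61 (-0.41 without *elavl3:Gal4* replicate 3, again with 22 below 0), and 13 had an unadjusted p under 0.05 in either case. Without *elavl3:Gal4* replicate 3, 6 genes were lower (*hoxc12a*, *hoxa10b*, *hoxc13b*, *hoxc6b*, *hoxd11a* and *hoxd12a*) and *hoxc1a* was higher, where 11% of all genes were lower and 11.7% higher.

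For *elavl3:Gal4* against WT at 5 dpf, 0 of 44 Hox genes were called by edgeR, where 0% of all genes were higher and 0.0508% lower, 1 had an unadjusted p under 0.05, and DESeq2 called 0. The median log2 difference was 0.17, and *hoxb9a* stood at 0.33 ± 0.20 on the log2 scale. Without replicate 3 of *elavl3:Gal4*, the median was -0.0012 and *hoxb9a* stood at 0.10 ± 0.09 (adjusted p = 0.785, edgeR).

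**Figure D4:**
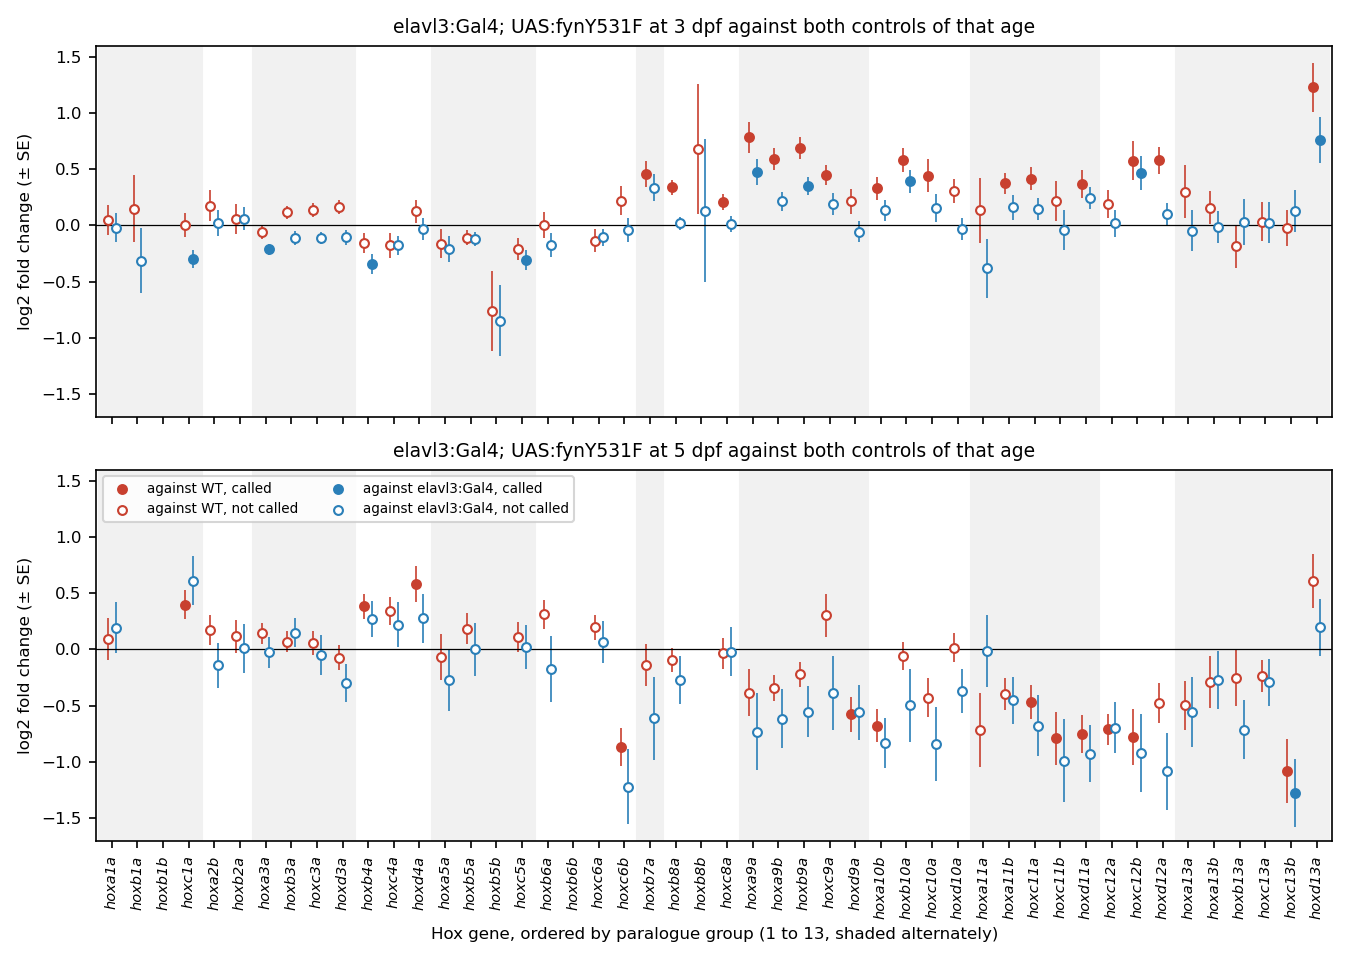
Log2 fold change (edgeR, bars are SE) of each tested Hox gene in fynY531F larvae against WT and against *elavl3:Gal4* larvae at 3 dpf (upper panel) and 5 dpf (lower panel), ordered by paralogue group, with filled points for genes called at an adjusted p under 0.05. Against WT, 13 posterior genes are called higher at 3 dpf and 8 called lower at 5 dpf.

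The same pattern was visible in sums over classes, given as CPM per kb with no test. The posterior sum was 141 ± 10.0 in WT, 168 ± 10.2 in *elavl3:Gal4* and 184 ± 14.6 in fynY531F larvae at 3 dpf (SD, n = 4). At that age the fynY531F range, 167.0 to 202.6, overlapped that of *elavl3:Gal4*, 157.4 to 181.7, and lay above that of WT, 130.4 to 153.6. At 5 dpf it was 104 ± 6.14 in WT, 124 ± 30.8 in *elavl3:Gal4* (109 ± 6.01 without replicate 3, n = 3) and 81.9 ± 7.0 in fynY531F larvae. The fynY531F range, 76.43 to 91.06, lay below that of WT, 98.54 to 112.4, and of *elavl3:Gal4* without replicate 3, 104.5 to 115.9. The anterior sum was 64.7 ± 2.37, 75.5 ± 2.11 and 68.9 ± 1.39 at 3 dpf, and 47.1 ± 1.61, 51.1 ± 5.86 (48.3 ± 1.98 without replicate 3) and 49.5 ± 4.85 at 5 dpf, in the same order of genotypes. The central sum was 197 ± 12.4, 218 ± 3.71 and 198 ± 8.21 at 3 dpf, and 129 ± 6.88, 148 ± 34.6 (131 ± 3.39 without replicate 3) and 141 ± 18.7 at 5 dpf. In these, the fynY531F libraries overlapped those of WT at 5 dpf. At 3 dpf the anterior fynY531F range, 66.95 to 70.16, also lay above that of WT, 61.89 to 66.76. It lay below that of *elavl3:Gal4*, 73.39 to 78.33. The central fynY531F range at 3 dpf, 187.6 to 205.4, overlapped that of WT, 178.2 to 204.2. It too lay below that of *elavl3:Gal4*, 213.0 to 222.0.

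As a share of each library's own Hox sum, which does not depend on the scaling between libraries, posterior genes made up 35.1% ± 2.82 in WT, 36.4% ± 1.31 in *elavl3:Gal4* and 40.8% ± 2.67 in fynY531F larvae at 3 dpf (SD, n = 4). At 5 dpf the shares were 37.2% ± 1.80, 38.3% ± 1.04 (37.8% ± 0.681 without replicate 3, n = 3) and 30.2% ± 2.71. The fynY531F share ran from 26.4% to 32.8% at 5 dpf, below the lowest WT library at 35.3% and the lowest *elavl3:Gal4* library at 37.3%. Replicate 3 of *elavl3:Gal4* was the highest of its group at 39.6%, against 37.3% to 38.6% in the others. At 3 dpf the fynY531F range of 37.8% to 44.3% overlapped those of WT (32.5% to 39.0%) and *elavl3:Gal4* (34.8% to 38%).

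**Figure D5:**
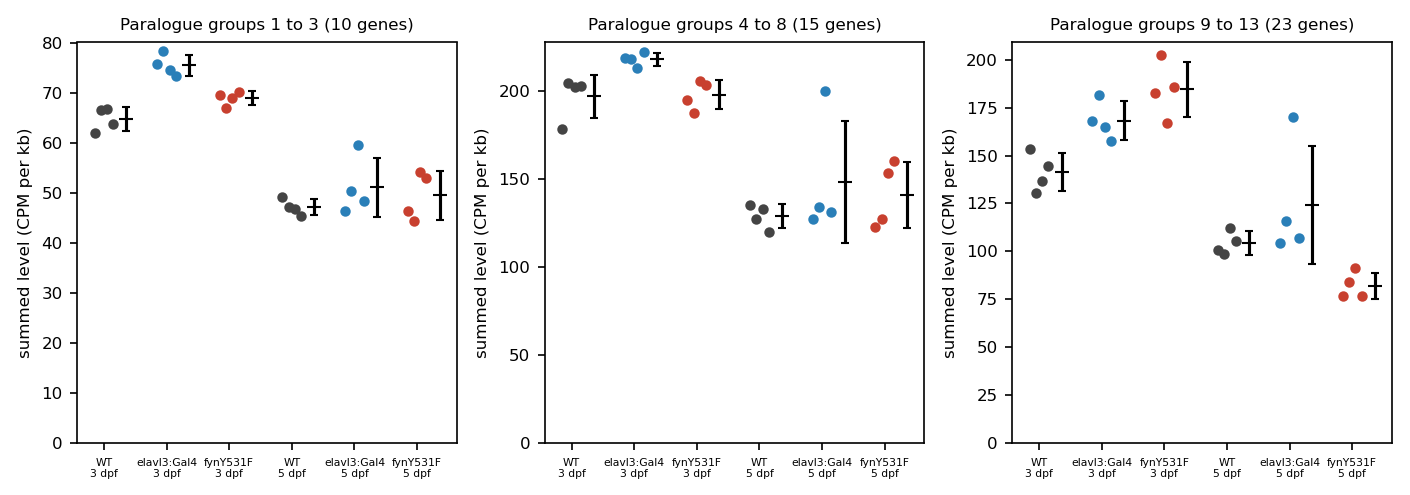
Summed level of anterior, central and posterior Hox genes in CPM per kb for each library, by group, with mean and SD (n = 4). Mean posterior sums of fynY531F larvae go from 184 at 3 dpf, the highest group mean, to 81.9 at 5 dpf, the lowest. At 3 dpf the fynY531F libraries overlap those of *elavl3:Gal4*.

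Genes that act with or on Hox genes were described from lists. The TALE homeodomain proteins Pbx, Meis and Pknox bind DNA together with Hox proteins. Of 14 TALE genes, 9 fell and 1 rose from 3 to 5 dpf in WT (*meis1a*, -0.51, *meis2b*, -0.44, and *meis3*, -0.57, fell and *pbx2* rose by 0.33), with a list median of -0.26, where 28.7% of all genes fell and 29.3% rose. In fynY531F larvae 8 fell and 1 rose (25.3% and 27% of all genes). The change with age differed between WT and fynY531F for 0 of 14, by edgeR or DESeq2, with 0 at an unadjusted p under 0.05. Of all genes, 6.23% were more positive and 5.47% more negative.

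The retinoic acid list of 19 genes held enzymes that make retinoic acid, the Cyp26 enzymes that degrade it, binding proteins and receptors. In WT, 13 fell and 2 rose with age, where 28.7% of all genes fell and 29.3% rose. *cyp26a1*, which degrades retinoic acid in the tail bud and elsewhere, held 53.6, 57.1, 50.1 and 57.2 CPM in WT at 3 dpf, 65.7, 61.9, 56.3 and 57.3 CPM in *elavl3:Gal4* larvae and 18.6, 17.2, 15.6 and 16.5 CPM in fynY531F larvae. The fynY531F libraries lay far below both other genotypes, with a log2 difference from WT of -1.69 ± 0.07 (adjusted p = 1.3e-08, edgeR). At 5 dpf it held 12.9, 12.6, 11.7 and 12.7 CPM in WT and 11.3, 10.4, 8.08 and 7.46 CPM in fynY531F larvae, a difference of -0.43 ± 0.14. *cyp26b1* and *cyp26c1* were lower at 3 dpf by 0.50 and 0.59 on the log2 scale. In all, 7 of the 19 were lower and 2 higher in fynY531F than in WT larvae at 3 dpf, where 14.8% of all genes were lower and 12.7% higher. The change with age differed for 5 of 19 genes (6.23% of all genes were more positive and 5.47% more negative), all less negative in fynY531F larvae, among them *cyp26a1* (1.25 ± 0.15), *cyp26b1* (0.77 ± 0.10) and *cyp26c1* (0.96 ± 0.25). The fourth of the genes named by the rule, the receptor gene *rargb*, fell with age in WT by 1.28 and its age change did not pass for a difference (0.35). Against *elavl3:Gal4* at 3 dpf, 7 of the 19 were lower and 1 higher, where 9.73% and 8.88% of all genes were. In the difference of age changes against *elavl3:Gal4*, 2 of 19 were more positive and 0 more negative, where 2.43% and 1.72% of all genes were.

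The list of Hox regulators held Cdx and hindbrain transcription factors and Polycomb and Trithorax genes, 16 of 18 of which were tested. In WT the Polycomb genes *ezh2* (-1.39), *suz12a* (-0.73) and *suz12b* (-1.41), which act in silencing Hox genes, fell with age and the hindbrain gene *egr2b* rose by 1.36, and in all 6 of 16 fell and 5 rose, against 28.7% and 29.3% of all genes. In fynY531F against WT, 5 of 16 were higher and 2 lower at 3 dpf, against 12.7% and 14.8% of all genes. The 5 were *egr2b* (0.75), *suz12b* (0.63), *kmt2a* (0.45), *suz12a* (0.23) and *bmi1a* (0.20). Against *elavl3:Gal4* at 3 dpf, 1 was higher (*kmt2a*, 0.32 ± 0.06) and 2 were lower, where 8.88% and 9.73% of all genes were. Those that were lower were *cdx1a* (-1.49 ± 0.24 against WT) and *cdx1b* (-0.997 ± 0.10), chosen after their values were seen, of the Cdx family that activates posterior Hox genes. The same genes were lower against *elavl3:Gal4* (-1.02 ± 0.26 and -0.98 ± 0.09). At 5 dpf *cdx1b* was lower than in WT (-1.59 ± 0.11), while *cdx1a* did not pass (0.09 ± 0.23). The other Cdx gene tested, *cdx4*, did not pass against WT at 3 dpf (-0.51 ± 0.33) or 5 dpf (0.31 ± 0.53). In all, 4 of 16 were higher than in WT at 5 dpf and 1 lower, where 14.5% and 14.3% of all genes were. Those that were higher were *ezh2* (0.42), *mafba* (0.32), *suz12a* (0.34) and *suz12b* (1.55). Against *elavl3:Gal4* at 5 dpf 0 were higher and 1 lower, *cdx1b* (-1.89 ± 0.16), where 2% and 2.6% of all genes were. The part of these genes in the Hox differences was not tested. In the age difference against WT, 2 of 16 were more positive and 3 more negative, against 6.23% and 5.47% of all genes. There *cdx1a* was more positive (1.57 ± 0.34) and *cdx1b* more negative (-0.60 ± 0.15). In the age difference against *elavl3:Gal4*, 1 of 16 was more positive and 1 more negative, where 2.43% and 1.72% of all genes were. The latter was *cdx1b* (-0.90 ± 0.18), and *cdx1a* did not pass (1.07 ± 0.40, adjusted p = 0.164, edgeR).

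Among the 38 annotated genes that lie within or up to 50 kb from a cluster, 19 were tested in the WT age comparison, and 10 fell and 4 rose, against 28.7% and 29.3% of all genes. The autophagy receptor-related genes *calcoco1a* and *calcoco1b* rose by 0.92 and 3.23 on the log2 scale, while *hibadhb* and *atp5mc1*, of mitochondrial metabolism, fell by 0.58 and 0.65. In the difference of age changes between fynY531F and WT, 1 of 23 was higher (*hibadhb*, 0.28) and 1 lower (*calcoco1b*, -1.58), a share near that of all genes, 6.23% and 5.47%. The homeobox genes *evx1* and *evx2*, which flank posterior Hox genes and were chosen after their values were seen, had differences of 0.04 ± 0.34 and -0.05 ± 0.16. The related *eve1*, beside the ba cluster, stood at 0.64 ± 0.56 and did not pass either.

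Genes listed as markers of tissues that can hold Hox-expressing cells were compared in the same way. The marker lists are short, and 5.47% of all genes were lower and 6.23% higher in the difference of age changes between fynY531F and WT. In that difference, 2 of 6 neuronal markers were lower (*gap43* and *stmn1b*), and the summed neuronal level was 1816 to 1940 CPM in WT and 2231 to 2599 CPM in fynY531F larvae at 3 dpf, and 2323 to 2786 and 2041 to 2699 CPM at 5 dpf. The same 2 were lower against *elavl3:Gal4* (-1.76 ± 0.32 and -1.36 ± 0.31), where 1.72% of all genes were lower and 2.43% higher. At 3 dpf itself, 4 of the 6 were higher in fynY531F than in WT larvae and 1 lower, against 12.7% and 14.8% of all genes. At 5 dpf 1 was higher and 1 lower, against 14.5% and 14.3%. *gap43* was higher than in WT at both ages (1.66 ± 0.07 and 0.85 ± 0.14), and *stmn1b* at 3 dpf (0.42 ± 0.06). The spinal motor neuron list kept 4 of 6 genes (*chata*, *slc18a3a*, *isl2a* and *isl2b*), as *mnx1* and *lhx3* were not matched. In the difference of age changes against WT, 1 of the 4 was lower, *slc18a3a* (-0.52 ± 0.16). The sums were 155.7 to 163.1 CPM in WT and 139.6 to 158.6 CPM in fynY531F larvae at 3 dpf. At 5 dpf they were 127.6 to 148.1 and 87.07 to 115.1 CPM. Of 3 markers of cerebrospinal fluid-contacting neurons of the spinal cord 2 were lower against WT, *pkd2l1* (-1.25 ± 0.20) and *pkd1l2a* (-1.04 ± 0.30), with sums of 14.94 to 17.81 and 18.69 to 19.30 CPM at 3 dpf and 16.01 to 22.49 and 9.276 to 14.44 CPM at 5 dpf. Against *elavl3:Gal4*, 0 of these 3 passed by edgeR (*pkd2l1* -0.68 ± 0.25, *pkd1l2a* -0.36 ± 0.35), and 0 of the 4 motor neuron genes. DESeq2 called 0 and 2 of them. In *elavl3:Gal4* larvae *pkd1l2a* also fell with age (-0.92 ± 0.26, adjusted p = 0.0303, edgeR). At 5 dpf the sums of the motor neuron list and the fluid-contacting neuron list in fynY531F larvae lay below those in WT without overlap. In *elavl3:Gal4* larvae of that age the motor neuron sums were 126 to 190 CPM, also above the fynY531F range. The fluid-contacting neuron sums there were 11.96 to 17.72 CPM, which overlaps the fynY531F range. Whole larvae were sequenced, so these sums are not measures of the spinal cord alone. The members did not share a direction: *pkd2l1* was lower (-1.41 ± 0.15 on the log2 scale) and *urp2* higher (1.00 ± 0.32, adjusted p = 0.0401, edgeR), while *chata* and *isl2b* were lower and *isl2a* stood at -0.01 ± 0.09. In the difference of age changes against WT, 1 of 4 fast muscle markers was lower, *mylpfa* (-5.31, adjusted p = 0.0126, edgeR). The level of *mylpfa* was very low, so this call says little about muscle. The markers *ckma* (-0.47, adjusted p = 0.144), *tnnt3b* (-0.37, adjusted p = 0.208) and *actc1b* (-0.25, adjusted p = 0.422, edgeR for all) did not pass. At 5 dpf itself, *tnnt3b* (-0.74 ± 0.16) and *actc1b* (-0.46 ± 0.15) were lower in fynY531F than in WT larvae, and *ckma* did not pass (-0.45 ± 0.17). Compared with *elavl3:Gal4*, *ckma* (-0.33), *tnnt3b* (-0.64) and *actc1b* (-0.58) were lower at 3 dpf and did not pass at 5 dpf. The same genes were higher in *elavl3:Gal4* than in WT larvae at 3 dpf. The fast muscle sums, in WT and then fynY531F larvae, were 10480 to 12150 and 8958 to 10820 CPM at 3 dpf. At 5 dpf they were 11190 to 13040 and 5838 to 10170 CPM.

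In the lists of fin, hindbrain, forebrain and liver markers, every call in the difference of age changes against WT was in the higher direction. Of 5 pectoral fin and actinotrichia markers 2 were higher (*and2* and *and3*), with sums, in WT and then fynY531F larvae, of 1732 to 2001 and 1287 to 1995 CPM at 3 dpf and 1676 to 2086 and 2130 to 3604 CPM at 5 dpf. Of 3 genes listed for hindbrain and cranial motor neurons only *tbx20* was higher, while *phox2a* (-0.08 ± 0.14) and *phox2bb* (0.19 ± 0.14) did not pass. The sums were 62.14 to 74.34 and 67.82 to 79.96 CPM at 3 dpf and 53.93 to 60.41 and 60.13 to 80.83 CPM at 5 dpf. Of 4 forebrain markers, a region outside the Hox domains, 1 was higher (*otx1*), with sums of 84.45 to 92.91 and 80.40 to 85.45 CPM at 3 dpf and 91.31 to 100.6 and 96.04 to 122.6 CPM at 5 dpf. Of 2 liver markers 1 was higher (*tfa*), with sums of 1792 to 2152 and 923.9 to 2033 CPM at 3 dpf and 1065 to 1525 and 944.2 to 1706 CPM at 5 dpf. The other, *fabp10a*, did not pass in the difference of age changes (-0.20 ± 0.33). It was lower in fynY531F than in WT larvae at 3 dpf (-1.09 ± 0.21) and at 5 dpf (-1.28 ± 0.20). Against *elavl3:Gal4*, *and1* (1.02 ± 0.27) and *and2* (0.90 ± 0.23) were higher, and no hindbrain, forebrain or liver marker passed.

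The gut is a tissue that expresses Hox genes, and its markers differed between the genotypes at each age. *vil1*, of the microvilli of enterocytes, was lower in fynY531F than in WT larvae by 1.36 ± 0.09 on the log2 scale at 3 dpf and by 1.41 ± 0.09 at 5 dpf. The fatty acid binding protein gene *fabp2* was lower by 2.21 ± 0.15 at 5 dpf, while *apoa4b.1* was higher at 3 dpf (0.37 ± 0.11) and stood at 0.19 ± 0.10 at 5 dpf. Compared with *elavl3:Gal4*, *vil1* was lower at both ages (-0.997 ± 0.11 and -1.60 ± 0.12) and *fabp2* at 5 dpf (-2.83 ± 0.45). *apoa4b.1* did not pass in that comparison at either age. The intestinal sums were 513.2 to 611.7 CPM in WT and 577.1 to 822.5 CPM in fynY531F larvae at 3 dpf and 831.8 to 996.4 and 645 to 788.5 CPM at 5 dpf, without overlap at 5 dpf. In the difference of age changes between fynY531F and WT, 0 of the 3 passed by edgeR or DESeq2, with 0 at an unadjusted p under 0.05. Against *elavl3:Gal4*, with replicate 3 at 5 dpf included, *fabp2* was lower (-2.35 ± 0.61, adjusted p = 0.0422, edgeR). The part of any of these tissues and cell types in the Hox differences was not tested. *mylpfa*, a fast muscle myosin light chain gene, stood between 0 and 5.26 CPM, *tbx5a* was at 0 in *elavl3:Gal4* replicate 3 at 5 dpf, and the other matched markers were above 0 in all libraries.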

How the data were processed

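Per the labels and the study's methods, poly(A) RNA of pooled whole larvae was sequenced as paired reads. The submitters' processing notes name HISAT2 2.0.5, StringTie 1.3.3b, featureCounts 1.5.0-p3 and GRCz11. The authors deposited 9 full tables with raw read counts per gene, gene length and coordinates, of which the count columns were used. A library stood in several tables with identical counts. Not used were 144 columns of other per-sample values, 27 tables of gene subsets, and the columns with the authors' own DESeq2 fold changes and p-values.

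Counts were analysed with edgeR 4.0.16 in R 4.3.3 (limma 3.58.1): TMM scaling, filterByExpr, glmQLFit and glmQLFTest on the groups compared, 2-sided, with Benjamini-Hochberg adjustment over all genes tested, and a call at an adjusted p under 0.05. Each SE was taken as the size of the log2 fold change over the root of F. The difference of age changes is the interaction of genotype and age over 4 groups. Levels are CPM with TMM factors over the 24 libraries, and CPM per kb of deposited gene length between genes. DESeq2 1.42.0 served as an alternative. Tables and figures were made with Python 3.11.15, pandas 2.3.3, numpy 2.4.6 and matplotlib 3.10.9. The fit was tested on simulated data. Replicates are pools of larvae, and p-values measure the spread between these libraries. Low genes carry large counting error: *hoxc13b* had 14 to 178 reads per library, *hoxa11a* 6 to 43, *hoxb1a* 3 to 23 and *hoxb1b* 1 to 26.

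Genes were named by rule: in each comparison all called Hox genes, or the 12 of lowest adjusted p, the 5 highest in level, the duplicate copy of genes named between genotypes, and up to 4 genes of each list by adjusted p in WT with age. The members and lists were chosen with earlier results of these data known. Alternatives were other size factors, library totals, other filters, DESeq2, 1 fit over all 6 groups, a replicate block and leaving out each library. Sequences of the genes were not used here.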

Additional observations from a re-analysis of the deposited data

Results flagged for a closer look

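A library far from the other 3 of its group by Dixon's criterion was found in 22 of 312 combinations of gene or class sum and group, where chance gives about 1 in 20. In 12 of the 22 the far library was *elavl3:Gal4* replicate 3 at 5 dpf, the library that stands apart over all genes. It was high for *hoxa5a* (10.9 CPM), *hoxa9b* (20.2), *hoxb7a* (24.6), *hoxb8b* (1.67), *hoxb9a* (36.8), *hoxb10a* (22.4), *hoxc5a* (19.2), *hoxc9a* (24.4), *hoxc10a* (12.9) and *hoxd9a* (14.1) and for the central sum (199.8 CPM per kb), and low for *hoxc8a* (10.2 CPM).

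The far libraries of other groups were scattered. In WT at 3 dpf, replicate 1 was low for the central sum (178.2 CPM per kb against 201.9 to 204.2) and *hoxb4a* (19.95 CPM), and replicate 3 was high for *hoxa13b* (7.88 CPM). In WT at 5 dpf, *hoxb3a* was low (56.5 CPM) and *hoxc8a* was low (12.3 CPM) in replicate 4, *hoxb1b* was high in replicate 2 (1.52 CPM) and *hoxc12b* in replicate 3 (4.80 CPM). In *elavl3:Gal4* larvae at 3 dpf, *hoxb7a* was high in replicate 1 (16.5 CPM) and *hoxb8b* in replicate 3 (2.61 CPM), and in fynY531F larvae at 5 dpf *hoxb1a* was high in replicate 1 (0.677 CPM).

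The change from 3 to 5 dpf differed between fynY531F and WT larvae for 18 Hox genes by the interaction test (edgeR, adjusted p under 0.05). On the log2 scale the differences were -1.37 for *hoxc12b*, -1.18 for *hoxa9a*, -1.13 for *hoxd11a*, -1.10 for *hoxc6b*, -1.07 for *hoxd12a* and *hoxc13b*, -1.02 for *hoxa10b* and *hoxc11b*, -0.94 for *hoxa9b*, -0.92 for *hoxb9a* and *hoxc12a*, -0.90 for *hoxc11a*, -0.88 for *hoxc10a*, -0.80 for *hoxd9a*, -0.78 for *hoxa11b*, -0.65 for *hoxb10a* and -0.44 for *hoxb8a*, and 0.53 for *hoxb4a*. Between fynY531F and *elavl3:Gal4* larvae it differed for 5, at -1.42 for *hoxc13b*, -1.39 for *hoxc12b*, -1.16 for *hoxd11a*, -0.96 for *hoxa10b* and 0.93 for *hoxc1a*.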

How the results depend on the processing

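No called Hox gene reversed its direction under any alternative run. Counts of called Hox genes that moved by over 1.5 times were as follows, with the cause not tested. For *elavl3:Gal4* with age (14 called) they were 32 with library totals alone, 27 with all 6 groups in 1 fit and 7 with the replicate block. For fynY531F against *elavl3:Gal4* at 3 dpf (9 called) they were 2 with all 6 groups and 5 with the replicate block. At 5 dpf (1 called) they were 0 with size factors by the DESeq2 method, library totals, no filter on low counts or the replicate block, 7 with DESeq2 and 17 with all 6 groups. For fynY531F against WT at 3 dpf (16 called), all 6 groups in 1 fit gave 4. For *elavl3:Gal4* against WT at 3 dpf (7 called) the counts were 2 with library totals, 0 with all 6 groups and 1 with the replicate block. For the difference of age changes, all 6 groups gave 11 against WT (18 called), and against *elavl3:Gal4* (5 called) at least 10 counts in every library gave 9, DESeq2 11, all 6 groups 12 and the replicate block 3.

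Leaving out 1 library at a time gave 29 to 35 called Hox genes for WT with age, 8 to 40 for *elavl3:Gal4* with age, 33 to 37 for fynY531F with age, 4 to 9 and 0 to 7 for fynY531F against *elavl3:Gal4* at 3 and 5 dpf, 11 to 15 and 6 to 14 for fynY531F against WT, 0 to 5 and 0 to 0 for *elavl3:Gal4* against WT, and 15 to 20 and 0 to 16 for the difference of age changes against WT and *elavl3:Gal4*. The highest counts of 40, 7 and 16 were those without *elavl3:Gal4* replicate 3 at 5 dpf. Library totals alone moved the median log2 fold change over all genes to -0.15, -0.19 and -0.10 for WT, *elavl3:Gal4* and fynY531F with age, to 0.14 for fynY531F against *elavl3:Gal4* and -0.11 for *elavl3:Gal4* against WT at 5 dpf. The split of all genes into higher and lower was then 4310 and 7724 in place of 5734 and 5618 for WT with age, 2059 and 2759 in place of 3000 and 2029 for *elavl3:Gal4* with age, 4294 and 6148 in place of 5316 and 4986 for fynY531F with age, 203 and 1006 in place of 351 and 572 for *elavl3:Gal4* against WT at 3 dpf, and 1588 and 824 in place of 1267 and 1113 for the difference of age changes against WT. Calls of single named genes were lost in 234 further combinations of gene and alternative.

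Replicate numbers did not pair the libraries: over 9 comparisons the correlation of deviations between libraries of the same number ran from -0.253 to 0.239, and 0 to 5 of 8 libraries correlated best with their own number. The Hox genes that overlap no other gene, an alternative added after seeing the data, held calls in 1 direction only in each comparison where any was called. This follows in part from their make-up, as no anterior gene among them was tested. The genes called in the other direction between genotypes (*hoxb4a*, *hoxd4a*, *hoxc1a*, *hoxa3a* and *hoxc5a*) all overlap another gene. These counts therefore cannot check the contrast between classes. Reads limit the low genes, such as *hoxb1b*, which passed the filter on low counts in no comparison with all libraries, and *hoxc13b*.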
